A study of Mus musculus with 31 samples.

Results

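Colon contents of mice labelled Rank4 were compared with those of mice labelled Rank2 and Rank3, by sequencing of the bacterial 16S rRNA gene. The comparison holds 19 of the 31 libraries of the series, 6 of Rank4 and 13 of the middle ranks, made up of 7 of Rank2 and 6 of Rank3. Libraries were chosen by the rank in their titles, and all 10 sequence variants listed for ranks were described. The mice were male and 6 to 8 weeks old, and the titles of these 19 libraries name no treatment, genotype or strain. The 6 Rank1 libraries of the same table carry a named treatment, go-through-tube, and were left out, as were the forced loss libraries. The labels do not say how a rank was assigned, and the order of the ranks is taken from their numbers. Each library is called a mouse here, which the labels do not state, so p-values measure the spread between libraries.

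An amplicon sequence variant (ASV) is one exact 16S sequence and stands for a strain or a group of close strains. Many gut bacteria are carried by some animals and not by others, and mice that share a cage share much of their flora, because mice eat faeces. Groups can therefore differ in the share of mice that carry an ASV (carriage, here any read above 0) and in the number of reads in carriers. Sequencing fixes the reads per library rather than the number of bacteria. A ratio between 2 ASVs of one library is therefore the measure least bound to depth, provided that both have reads.

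The table names its ASVs by number only. ASV614 alone is also listed in the other table of the series, with equal counts in 6 of 6 shared libraries, and is assigned there to Oscillibacter, an anaerobic genus of the Oscillospiraceae. The other 9 are described by number, and no sequence is shown because the files used here hold none. The listed ASVs summed to 88 to 693 reads per library in the middle ranks (median 430) and to 102 to 793 reads in Rank4 (median 250.5). These sums are not library depths, which are unknown here, so no share of a whole community and no detection limit is given. Middle-rank libraries held 3 to 7 of the 10 ASVs (5 ± 1.29, SD, n = 13) and Rank4 libraries 2 to 5 (3.5 ± 1.22, SD, n = 6).

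Rank4 mice differed from the middle ranks first in an ASV that most of them lacked. ASV25 had reads in 13 of 13 middle-rank libraries and in 2 of 6 Rank4 libraries, and ASV46, with a similar mean in the middle ranks, had reads in 5 of 6. ASV91 and ASV621 ran the other way, each with reads in 5 of 6 Rank4 libraries and 4 of 13 middle-rank libraries. ASV641, ASV694, ASV2380 and ASV614 had no read in any Rank4 library, and were each carried by 1 to 5 of the 13 middle-rank mice. The plot of reads by rank shows all 10.

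**Figure D1:**
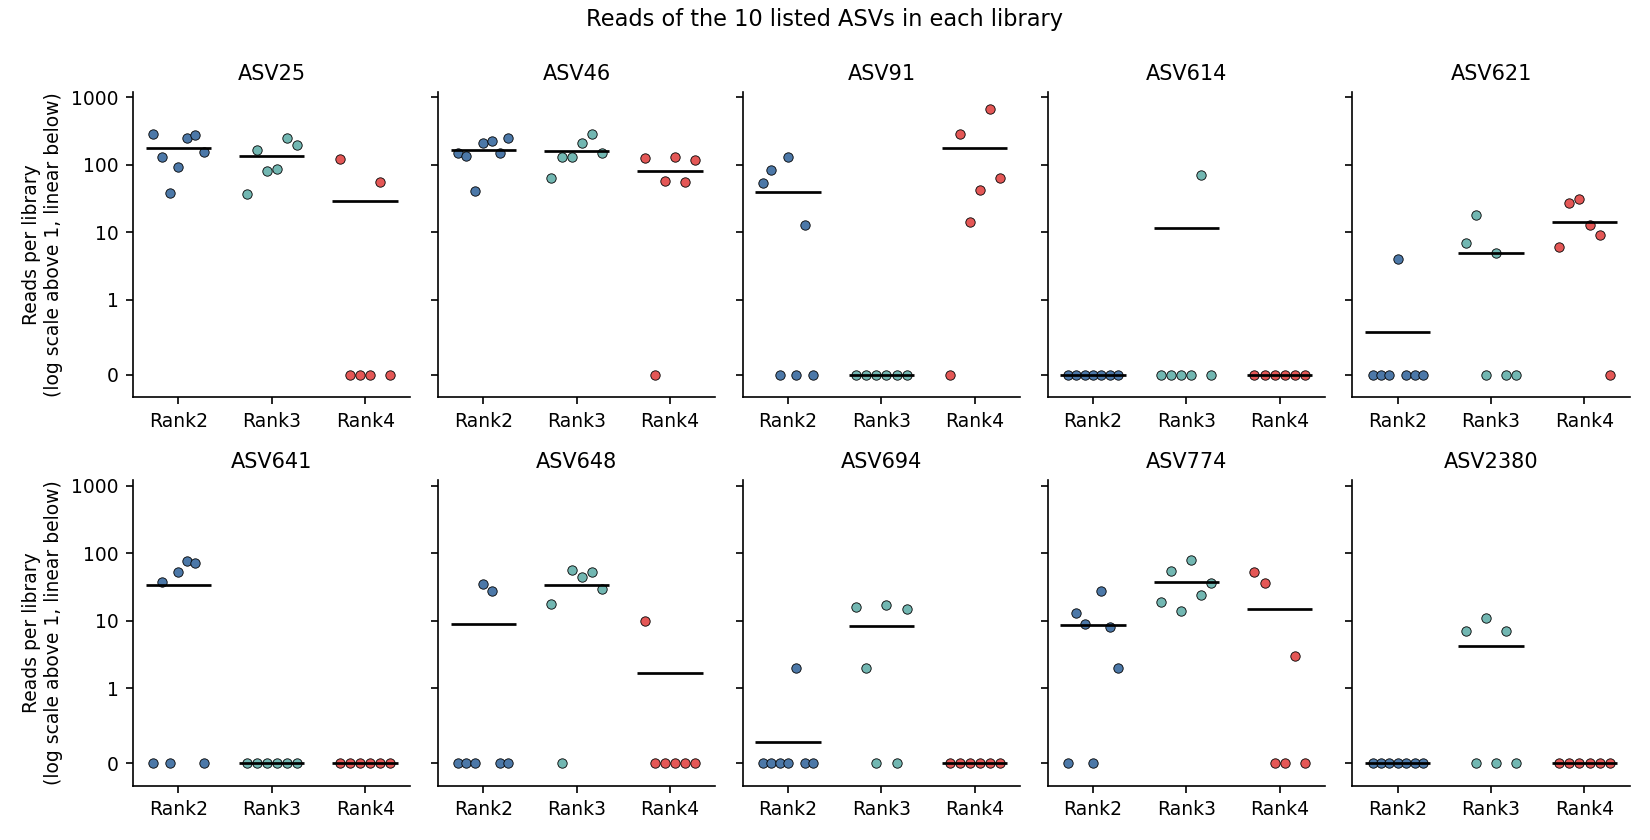
Reads per library (vertical axis, logarithmic above 1 and linear below) for each listed ASV in Rank2 (n = 7), Rank3 (n = 6) and Rank4 (n = 6). Each point is 1 library and each bar is the group mean. ASV25 sits between 37 and 288 reads in every middle-rank library and at 0 in 4 of 6 Rank4 libraries, and the means of ASV91 and ASV621 are highest in Rank4.

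The most widely carried ASVs were ASV25 and ASV46. ASV25 had a lowest, median and highest count of 37, 153 and 288 reads in the middle ranks. In Rank4 it had 121 reads in replicate 1, 55 in replicate 5 and 0 in replicates 2, 3, 4 and 6. Its mean was 157.5 ± 88.7 reads in the middle ranks and 29.3 ± 50.01 in Rank4 (SD, n = 13 and 6), 5.37-fold lower. Without replicate 1, which held 68.8% of the Rank4 reads, the Rank4 mean was 11 reads and the fitted edgeR difference log2 -3.82 (adjusted p = 0.0490), against log2 -2.42 with it. The 2 carriers lay within the middle-rank range, so the groups overlapped through them.

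Carriage of ASV25 was 33.3% in Rank4 (95% exact binomial interval 4.33% to 77.7%) and 100% in the middle ranks (75.3% to 100%). It was the only one of the 10 ASVs whose carriage passed at an adjusted p of 0.05, which is 10% of those tested (two-sided Fisher's exact test, p = 0.00387, adjusted over the 10 ASVs 0.0387). The call rested on the 4 Rank4 libraries without a read: leaving out replicate 2, 3, 4 or 6 gave an adjusted exact p of 0.123. Set against one middle rank at a time the same shares did not pass (adjusted exact p = 0.146 against Rank2 and 0.200 against Rank3).

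ASV46 had 41, 151 and 287 reads as lowest, median and highest count in the middle ranks. Its 6 Rank4 counts were 125, 0, 57, 132, 56 and 119. The means were 164 ± 70.6 and 81.5 ± 52.4 reads (SD, n = 13 and 6), 2.02-fold lower in Rank4, and 5 of the 6 Rank4 counts were inside the middle-rank range. The fitted edgeR difference was log2 -1.01 (SE 0.86, adjusted p = 0.279), and turned to log2 0.0047 when TMMwsp set the library scale. By an exact two-sided permutation of ranks ASV46 was lower in Rank4 (adjusted p = 0.0461), and by mean reads it did not pass (adjusted exact p = 0.0634).

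Where a Rank4 mouse had both ASVs, their ratio was inside the range of the middle ranks. The ratio of ASV25 to ASV46 reads was 0.968 and 0.982 in the 2 Rank4 libraries with both, and it ran from 0.425 to 1.91 (median 0.927) in the 13 middle-rank libraries. In replicates 3, 4 and 6 of Rank4, ASV46 had 57, 132 and 119 reads beside no read of ASV25. Replicate 2 had neither. Among carriers alone the ASV25 mean was 88 ± 46.7 reads in Rank4 (SD, n = 2) and 157.5 in the middle ranks, a difference that was not tested.

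ASV91 had the highest mean of the listed ASVs in Rank4, through replicate 5, and a lower median than ASV46 (52.5 against 88 reads). Its Rank4 counts were 0, 282, 14, 42, 670 and 63 reads in replicates 1 to 6, a mean of 178.5 ± 262 (SD, n = 6). In the middle ranks the mean was 21.5 ± 41.6 reads (SD, n = 13), 8.29-fold lower, and the groups overlapped. The 4 middle-rank carriers were all Rank2 mice, with 13, 53, 85 and 129 reads, and no Rank3 mouse had a read. Replicate 5 held 62.6% of the Rank4 reads, and without it the Rank4 mean was 80.2 reads.

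The pooled difference of ASV91 did not pass (edgeR log2 3.04, SE 1.49, adjusted p = 0.0995; adjusted exact permutation p of mean reads 0.0774). Nor did it with TMM, TMMwsp or listed-total scaling. It passed by limma (adjusted p = 0.00291) and against the mean of Rank2 and Rank3 in a fit with 3 groups (edgeR adjusted p = 0.000467). That mean gives Rank3, with every count at 0, the same weight as Rank2. Against Rank3 alone, where every count was 0, Rank4 was at least 59.5-fold higher (edgeR adjusted p = 0.000427), taken against a floor of 3 counts per library. That bound uses the Rank4 mean, 178.5 reads with replicate 5 and 80.2 without it, so it is lower without that mouse. Without replicate 5 the call against Rank3 remained (edgeR adjusted p = 0.000575). Against Rank2 alone Rank4 was 4.46-fold higher and did not pass (edgeR log2 2.15, SE 1.46, adjusted p = 0.354). Carriage of ASV91 was 83.3% in Rank4, 57.1% in Rank2 and 0% in Rank3, and the Rank4 share against the pooled 30.8% gave an adjusted exact p of 0.191.

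ASV621 was sparser and moved the same way. It had 6, 27, 31, 13, 9 and 0 reads in Rank4 replicates 1 to 6, and in the middle ranks 4 reads in 1 Rank2 mouse and 5, 7 and 18 reads in 3 Rank3 mice. The means were 14.3 ± 12.2 and 2.62 ± 5.20 reads (SD, n = 6 and 13), higher in Rank4, with overlapping groups. The middle-rank mean was under the floor of 3 counts per library, so no fold is given. Without Rank3 replicate 2, which had 18 reads, the middle-rank mean was 1.33. It rose by the exact two-sided permutation test of mean reads (adjusted p = 0.0433) and did not pass edgeR (log2 2.40, SE 1.57, adjusted p = 0.170). Carriage, 83.3% against 30.8%, did not pass either (adjusted exact p = 0.191).

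The make-up of the listed reads shows these shifts within single libraries. ASV25 and ASV46 together held 57.9% to 99.5% of the listed reads in the 13 middle-rank libraries, above 50% in each. In Rank4 they held 78.3%, 0%, 55.9%, 70.6%, 13.998% and 65.4% in replicates 1 to 6. Shares of one library are tied, so more reads of ASV91 lower the shares of the other ASVs. In replicate 5 ASV25 and ASV46 had 55 and 56 reads, inside their middle-rank ranges, beside 670 reads of ASV91. ASV91 held 81.7% in replicate 2 and 84.5% in replicate 5, and at most 24.7% in any middle-rank library. Replicate 1 was the Rank4 mouse most like the middle ranks: it had no ASV91, the most ASV25, and 78.3% of its listed reads in ASV25 and ASV46. It was also the only Rank4 library with ASV648.

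**Figure D2:**
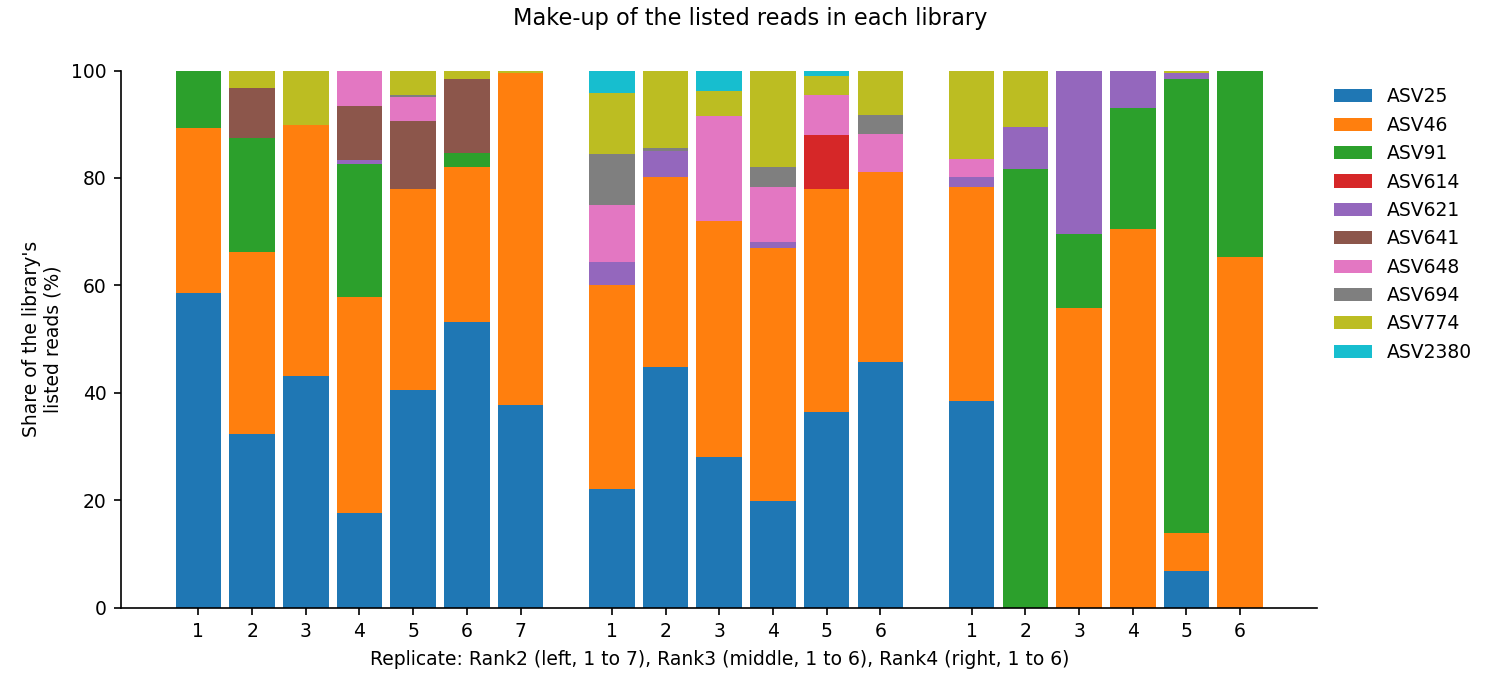
Share of each library's listed reads (vertical axis, percent) held by each of the 10 ASVs, 1 bar per library for Rank2 (left), Rank3 (middle) and Rank4 (right). ASV25 and ASV46 make up over 50% of every middle-rank bar, and ASV91 fills 81.7% and 84.5% of Rank4 replicates 2 and 5.

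ASV648 and ASV774 had their highest means in Rank3. ASV648 had reads in 2 of 7 Rank2 mice, 5 of 6 Rank3 mice and 1 of 6 Rank4 mice, with means of 9 ± 15.5, 33.7 ± 21.9 and 1.67 ± 4.08 reads (SD). The only Rank4 count above 0 was 10 reads, in replicate 1. The Rank4 mean was under the floor of 3 counts per library, so no fold is given, and the pooled difference did not pass (edgeR log2 -3.52, SE 2.07, adjusted p = 0.143), and without that mouse, which leaves no read of ASV648 in Rank4, it did (edgeR adjusted p = 0.0490).

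ASV774 was carried by 11 of 13 middle-rank mice and 3 of 6 Rank4 mice, whose counts were 52, 36 and 3 reads. Its Rank4 mean of 15.2 ± 22.9 reads (SD, n = 6) lay between the Rank2 mean of 8.57 ± 9.90 and the Rank3 mean of 37.7 ± 24.8. The pooled difference was within the spread (edgeR log2 -0.53, SE 1.54, adjusted p = 0.732). Its direction differed between the ranks, higher than Rank2 (log2 0.81, SE 1.65) and lower than Rank3 (log2 -1.31, SE 1.74), neither past the threshold. Without Rank4 replicate 1 the difference from Rank2 was log2 -0.13.

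The remaining 4 ASVs had no read in the 6 Rank4 libraries, a carriage of 0% with an upper 95% limit of 45.9%. ASV641 had reads in Rank2 alone, with 37, 52, 77 and 72 reads in 4 of 7 Rank2 mice and none in Rank3. ASV694 had 16, 2, 17 and 15 reads in 4 of 6 Rank3 mice and 2 reads in 1 Rank2 mouse. ASV2380 had 7, 11 and 7 reads in 3 of 6 Rank3 mice and none in Rank2. ASV614 of Oscillibacter had 70 reads in 1 Rank3 mouse and none in the other 12 middle-rank mice.

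Against the pooled middle ranks none of these 4 passed (edgeR adjusted p = 0.0629 for each). ASV641, with a middle-rank mean of 18.3 ± 30.04 reads, was at least 6.10-fold lower in Rank4 against the floor of 3 counts per library. Its carriage was 0 of 6 against 4 of 13 (adjusted exact p = 0.374). The bounds were 1.79-fold for ASV614 and 1.33-fold for ASV694, and the ASV2380 mean of 1.92 reads was itself under the floor, so no fold is given. For ASV614 the exact permutation p of mean reads was 1, since 1 mouse held all of its reads.

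**Figure D3:**
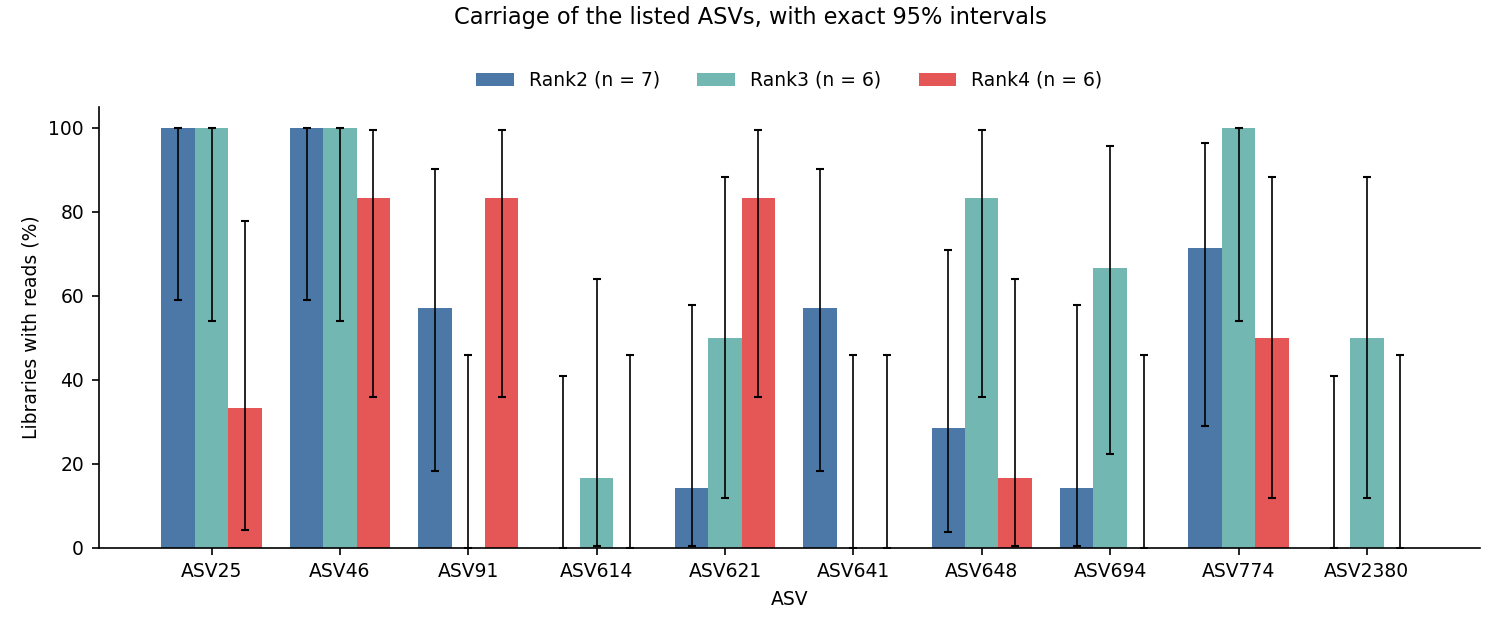
Share of libraries with any read of each ASV (vertical axis, percent) in Rank2, Rank3 and Rank4, with exact 95% binomial intervals as error bars. ASV25 falls from 100% in both middle ranks to 33.3% in Rank4, and ASV641, ASV694, ASV2380 and ASV614 have no bar in Rank4, each with an interval up to 45.9%.

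Across the 10 ASVs, 0 passed edgeR's quasi-likelihood test of reads in Rank4 against the pooled middle ranks at an adjusted p of 0.05 (background 0%), and 5 had an unadjusted p under 0.05 (50%). These 5 were ASV91 and the 4 ASVs without a Rank4 read. DESeq2 called 0 with estimated size factors and 0 with size factors at 1, with 1 and 2 at an unadjusted p under 0.05. It gave an adjusted p to only 8 and 9 of the 10 ASVs. With estimated size factors ASV91 got no p, so that fit could not call it. The exact two-sided permutation test over all 27132 ways to label 6 of the 19 libraries passed 2 of 10 by mean reads (20%), ASV25 lower (exact adjusted p = 0.0433) and ASV621 higher. By ranks it passed 3 (30%), adding ASV46, and by mean log2(count + 1) it passed 1 (10%), ASV25. limma on centred log-ratios passed 3 (30%), ASV25 lower and ASV91 and ASV621 higher.

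The tools thus placed different ASVs past the threshold. The edgeR fit gave ASV25 log2 -2.42 (SE 1.26, adjusted p = 0.108) and its smallest p-values to ASVs absent from Rank4. Leaving out Rank2 replicate 4, the only Rank2 mouse with ASV621 and the one with most ASV91, let 5 ASVs pass edgeR, namely ASV91, ASV641, ASV694, ASV2380 and ASV614. Leaving out Rank4 replicate 1 let 3 pass, ASV25, ASV641 and ASV648. All 10 ASVs were listed by the authors by a rule not given in the sources used here, and if ranks entered that rule these tests are not independent evidence of a difference between ranks.

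Splitting the middle ranks changed which ASVs passed. Against Rank2 alone 1 of 10 passed edgeR (10%), ASV641, at least 11.3-fold lower in Rank4 (adjusted p = 0.0273). That call was lost without Rank4 replicate 2, 3, 4 or 6, where the number passing was 0. Without Rank4 replicate 1, 3 passed, ASV25, ASV641 and ASV648. It did not pass in either DESeq2 fit (adjusted p = 0.0529 and 0.0631). Its carriage, 0 of 6 against 4 of 7, gave an exact unadjusted p of 0.0699. ASV621 had a mean of 0.571 reads in Rank2, under the floor, and no fold is given (edgeR log2 4.38, SE 1.91, adjusted p = 0.136), and it passed without Rank2 replicate 4, its only Rank2 carrier, with TMM, TMMwsp or listed-total scaling, and by limma and 1 of 2 DESeq2 fits.

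Against Rank3 alone 4 of 10 passed edgeR (40%). ASV91 was higher, and ASV694 (at least 2.78-fold, adjusted p = 0.0226), ASV2380 (at least 1.39-fold, adjusted p = 0.0307) and ASV614 (at least 3.89-fold, adjusted p = 0.0307) were lower in Rank4. The ASV2380 and ASV614 calls did not hold under TMM, TMMwsp or listed-total scaling, and ASV694 and ASV2380 did not pass by DESeq2 or limma. ASV91 passed in each of these fits but 1, DESeq2 with estimated size factors, which gave it no adjusted p. The ASV614 call rests on 1 Rank3 mouse, replicate 5, and could not be fitted without it. The number passing fell to 2, ASV91 and ASV694, without Rank4 replicate 2, 4 or 6, and was 6 without Rank4 replicate 1, with ASV25 and ASV648 added. By Fisher's exact test of carriage 0 of 10 passed against either rank. At an unadjusted p under 0.05 there were 2 against Rank2, ASV25 and ASV621, and 1 against Rank3, ASV91 (exact p = 0.0152).

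The contrasts with Rank2 and with Rank3 share the Rank4 libraries. Whether they differ is the test of Rank2 against Rank3 itself, chosen after the data were seen: 5 of 10 ASVs passed edgeR (50%), ASV91 and ASV641 higher in Rank2 and ASV694, ASV2380 and ASV614 higher in Rank3. By this 1 fit the pooled middle group joins unlike ranks for these 5, and no other setting was run for the contrast. The ASV614 call rests on 1 Rank3 mouse, and ASV694 was near the threshold (edgeR adjusted p = 0.0470). ASV25 and ASV46 gave log2 0.35 (SE 1.22) and 0.04 (SE 0.98) between Rank2 and Rank3, within the spread.

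**Figure D4:**
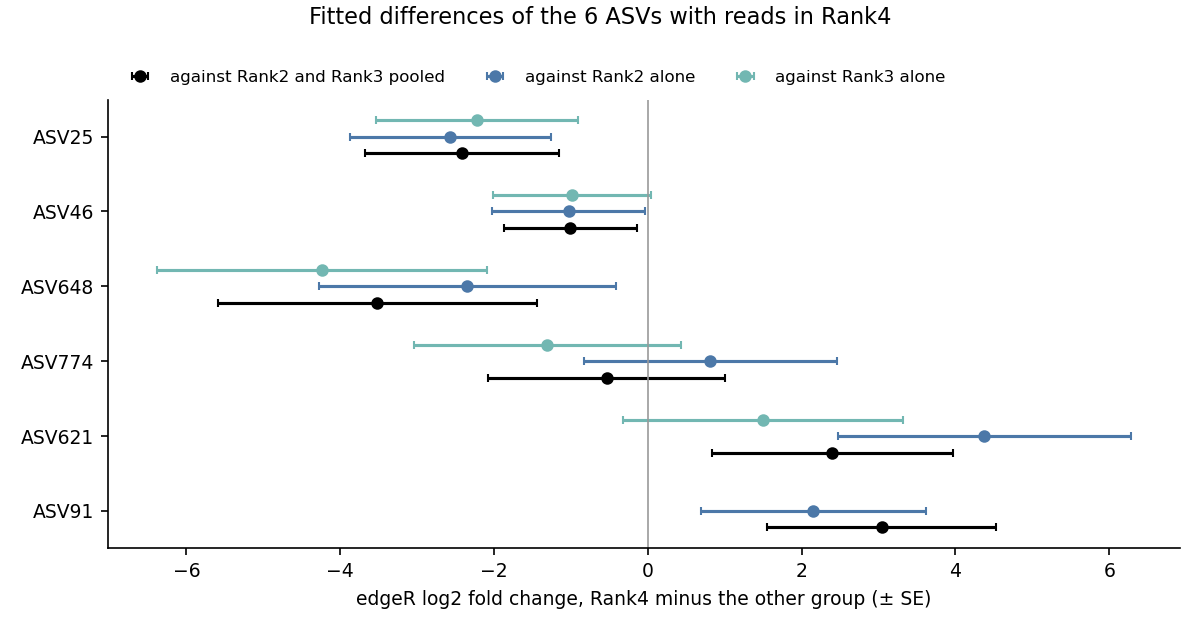
Fitted edgeR log2 fold change of Rank4 minus the other group (horizontal axis, bars are ± 1 SE) for the 6 ASVs with reads in Rank4, against the pooled middle ranks, Rank2 alone and Rank3 alone. ASV91 against Rank3 is left out because every Rank3 count was 0. ASV25 lies between log2 -2.57 and -2.22 in all 3, and ASV774 lies on opposite sides of 0 against Rank2 and Rank3.

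Ratios between ASVs of the same library were tested for all 45 pairs, as the difference in mean log2 ratio with a pseudocount of 0.5 and an exact two-sided permutation of the 19 libraries. At an adjusted p of 0.05, 15 of 45 passed (33.3%), and all 15 held ASV25, ASV91 or ASV621. ASV25 was in 7 of them and ASV621 in 7. A ratio against an ASV that is 0 in most libraries, such as ASV25 over ASV614, repeats the numerator's own carriage, and pairs that share an ASV are not independent.

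The ratio of ASV25 to ASV91 averaged log2 5.96 ± 3.24 in the middle ranks and -3.84 ± 6.07 in Rank4 (SD, n = 13 and 6; difference -9.80, exact permutation adjusted p = 0.00995). In 5 of 6 Rank4 libraries it was below the middle-rank minimum of -0.49, and replicate 1, with 7.92, was above the middle-rank mean. The ratio of ASV25 to ASV621 averaged 6.82 ± 2.50 and -1.62 ± 4.48 (difference -8.44, exact permutation adjusted p = 0.00995). Both passed in 19 of 19 tests that left out 1 library. ASV25 and ASV91 both had reads in only 1 of 6 Rank4 and 4 of 13 middle-rank libraries, and ASV25 and ASV621 in 2 and 4. In all other libraries the pseudocount enters the ratio, so these differences reflect carriage as well as reads. Against one rank alone, ASV25 over ASV91 did not pass (exact permutation adjusted p = 0.0625 against Rank2 and 0.0557 against Rank3), and ASV25 over ASV621 passed against Rank2 (0.0262) and not against Rank3 (0.0557).

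The ratio of ASV621 to ASV694 averaged 4.08 ± 2.18 in Rank4 and -0.31 ± 2.06 in the middle ranks (exact permutation adjusted p = 0.00995), and its ratios to ASV648, ASV774 and ASV2380 differed by 5.46, 4.65 and 3.81. The ratio of ASV91 to ASV641 averaged 6.30 ± 3.66 in Rank4 and -0.04 ± 2.99 in the middle ranks (exact permutation adjusted p = 0.0129). Neither ASV91 nor ASV641 had a read in 8 of 13 middle-rank libraries, and neither ASV621 nor ASV694 in 7, which sets their ratio there to 0 through the pseudocount. The ratio of ASV46 to ASV621 was lower in Rank4 by exact permutation (2.19 ± 4.55 against 6.99 ± 2.18, adjusted p = 0.0277). So were ASV25 over ASV614 and over ASV2380, by -5.03 and -4.63.

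Among the 3 ASVs with reads in at least 10 of the 19 libraries, ASV25, ASV46 and ASV774, both ratios with ASV25 were lower in Rank4 and the third did not pass. ASV25 over ASV46 averaged -0.17 ± 0.71 in the middle ranks, the narrowest spread of these 3 ratios, and -3.81 ± 4.17 in Rank4 (difference -3.64, exact permutation adjusted p = 0.0447). Its Rank4 values were -0.05, 0, -6.85, -8.05, -0.03 and -7.90, so 3 libraries lay far below the middle ranks and 3 inside their range. The 0 of replicate 2 is set by the pseudocount, since that library had neither ASV. ASV25 over ASV774 differed by -3.79 (exact permutation adjusted p = 0.0434), and these 2 ratios each passed in 10 of 19 tests that left out 1 library. Against one rank alone, ASV25 over ASV46 did not pass (exact permutation adjusted p = 0.126 against Rank2 and 0.245 against Rank3). ASV25 over ASV774 passed against Rank2 (0.0393) and not against Rank3 (0.295). With replicate number as a block neither passed (0.0730 and 0.113). ASV46 over ASV774 averaged 3.65 ± 5.48 in Rank4 and 3.80 ± 2.52 in the middle ranks (exact permutation adjusted p = 0.955).

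**Figure D5:**
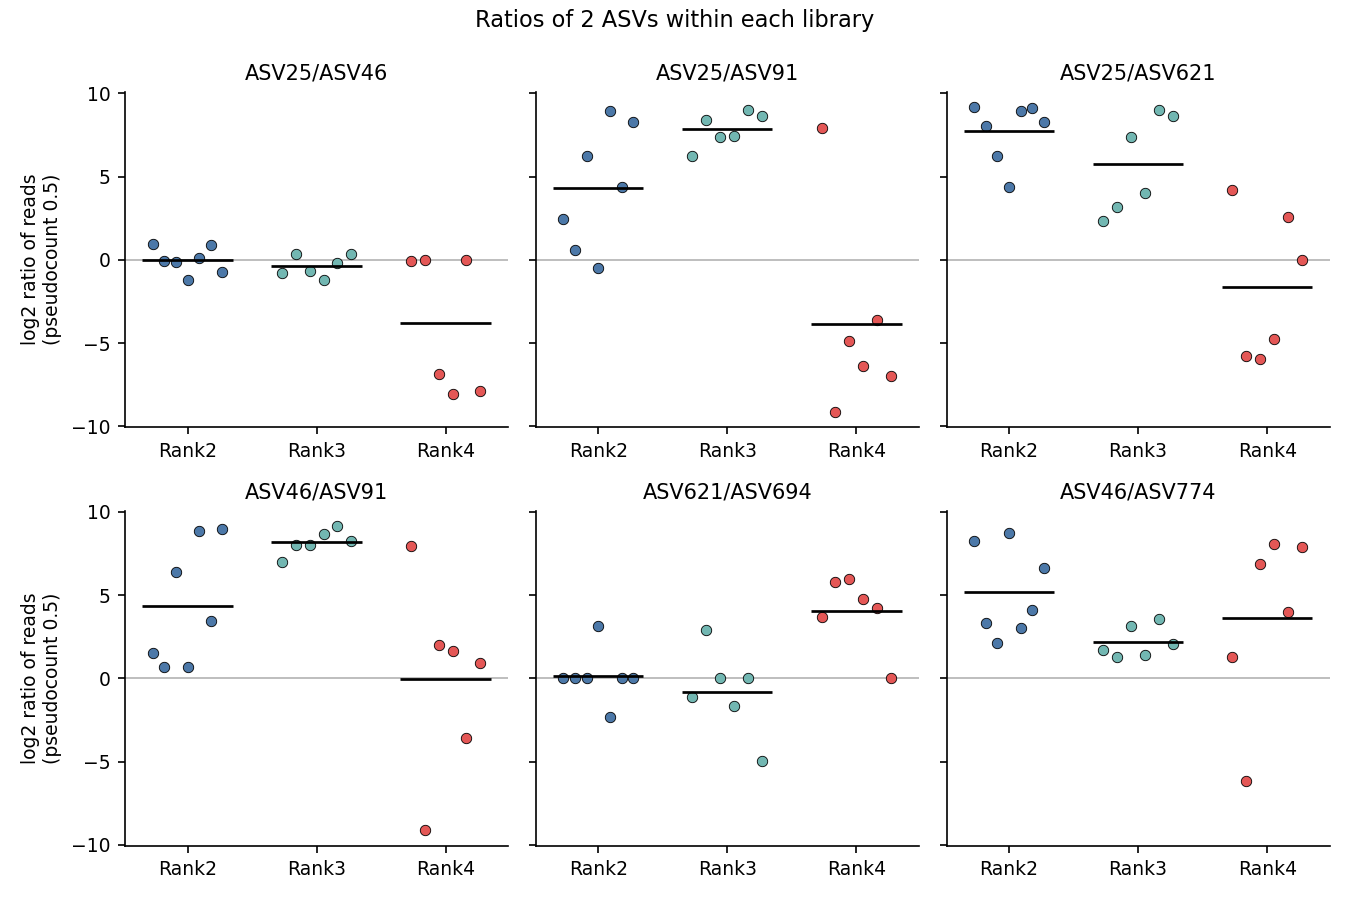
log2 ratio of the reads of 2 ASVs in each library (vertical axis, pseudocount 0.5 added to both) for 6 pairs in Rank2, Rank3 and Rank4. Points are libraries and bars are means. For ASV25/ASV91, 5 of 6 Rank4 libraries lie below every middle-rank library, and ASV46/ASV774 does not separate the groups.

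The number of passing pairs moved with single mice: it was 7 without Rank4 replicate 2, 5 without replicate 3, 5 without replicate 4, 9 without Rank3 replicate 5 and 10 without Rank2 replicate 3, 5 or 7. It was 20 without Rank2 replicate 4 and largest, 21, without Rank4 replicate 1. Against Rank2 alone 10 pairs passed and against Rank3 alone 0 (exact permutation, smallest adjusted p = 0.0557, 17 at an unadjusted p under 0.05). Restricted to libraries with reads of both ASVs, 3 pairs had at least 3 such libraries in each group, and 0 passed, with a smallest exact unadjusted p of 0.200, for ASV46 over ASV621. In those libraries ASV46 over ASV91 averaged 0.25 ± 2.60 in 4 Rank4 mice and 1.60 ± 1.34 in 4 middle-rank mice (exact permutation p = 0.543). The smallest exact p is 0.1 for 3 against 3 libraries and 0.0286 for 4 against 4, or 0.0857 for 1 such pair adjusted over 3, so these tests were close to unable to pass and say nothing of the ratios among carriers.

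Joint carriage of ASV25 and ASV91 was counted in each rank. Rank2 had 4 mice with both and 3 with ASV25 alone, and Rank3 had 6 with ASV25 alone. Rank4 had 1 mouse with both, 1 with ASV25 alone and 4 with ASV91 alone. All 13 middle-rank mice had ASV25, so ASV91 alone could not occur there, and its absence repeats the carriage of ASV25. These counts of joint carriage were chosen after the data were seen and are given without a test. The labels do not tie mice to cages, so whether mice of one rank shared a cage, and its part in the carriage patterns, was not tested.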

How the data were processed

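Reads of each ASV in each library are whole-number counts, as deposited by the authors: 10 listed ASVs over 25 libraries for ranks, of which 19 were used, and 16 ASVs for forced loss, used to name ASV614 only. Per the labels' protocols, microbial DNA of colon contents was isolated, PCR amplified and read from both ends on an Illumina sequencer. The sources used here do not name primers, denoiser, taxonomy database or the rule behind the ASV list. Columns were matched to samples by library name.

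Counts were fitted with edgeR 4.0.16 (quasi-likelihood) with one equal size for every library, no scaling factor and no filter, since sums of chosen ASVs are not depths. The SE is the log2 value over the square root of F. Means of ASVs with no read in a group were compared with a floor of 3 counts per library, which covers counting error only. Carriage used Fisher's exact test, and log-ratios exact permutation with a pseudocount of 0.5. A permutation p is the share of splits with at least the observed absolute difference. p-values were Benjamini-Hochberg adjusted over the 10 ASVs or 45 pairs, at 0.05. Alternatives used DESeq2 1.42.0 and limma 3.58.1 in R 4.3.3, and SciPy 1.17.1. Scripts were tested on simulated data.

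All 10 ASVs are named. Of the pairs that passed, the 10 with the smallest p are named, and all pairs among ASVs with reads in at least 10 libraries are described. The libraries, comparison and lists were chosen with earlier results of these data known. In all 51 pairs of libraries of one group the counts differed (chi-square, largest p = 0.00056), so none was counted as a copy. The labels do not say whether replicates are separate mice, so p-values measure the spread between libraries.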

Additional observations from a re-analysis of the deposited data

Results flagged for a closer look

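A test of the gap between the most extreme library and the rest of its rank, run on 66 groups of values, marked 10. The limits of the test are meant to mark about 1 in 20 groups of normally distributed values. That rate need not hold for counts with many zeros or for ratios that share libraries, so the 10 are not compared with it. Of the 10, 5 met the test because every other library was at 0 reads. For single ASVs these were Rank2 replicate 4 with 4 reads of ASV621, Rank2 replicate 5 with 2 reads of ASV694, Rank3 replicate 5 with 70 reads of ASV614 and Rank4 replicate 1 with 10 reads of ASV648. The listed reads summed to 88 in Rank2 replicate 3, far below the other Rank2 libraries, and to 793 in Rank4 replicate 5, far above the other Rank4 libraries. Among log2 ratios, Rank2 replicate 4 stood apart for ASV621/ASV694 and for ASV621/ASV2380 (3.17 each), Rank3 replicate 5 for ASV25/ASV614 (1.85) and Rank4 replicate 1 for ASV25/ASV91 (7.92).

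For 5 ASVs the difference of Rank4 from Rank2 was unlike its difference from Rank3, by 1 fit without alternative settings. The test was edgeR's contrast of Rank2 with Rank3, with adjusted p-values of 0.00271 for ASV91, 0.0136 for ASV641, 0.0194 for ASV614, 0.0194 for ASV2380 and 0.0470 for ASV694. Both differences use the same Rank4 libraries, and the ASV614 value rests on 1 Rank3 mouse.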

How the results depend on the processing

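Counts of ASVs and pairs past the threshold depended on the setting, and the cause was not tested. Some settings also tested fewer features. Against the pooled ranks, 0 of 10 ASVs passed edgeR, with 3 by limma on centred log-ratios, 3 with Rank1 added to the fit and 2 of 8 after the filter on reads in at least 4 libraries. There was 1, ASV91, against the mean of Rank2 and Rank3 in a fit with 3 groups. By exact permutation of reads, logs and ranks 2, 1 and 3 passed against the pooled ranks. Without single libraries the number passing edgeR ranged from 0 to 5. Against Rank2 alone, 1 passed, with 2 under TMM, TMMwsp or the listed totals, 4 by limma, 0 by DESeq2 with size factors at 1, and 0 to 3 without single libraries. Against Rank3 alone, 4 passed, with 2 under TMM, TMMwsp, the listed totals or the filter, 0 and 1 by DESeq2, and 2 to 6 without single libraries. By limma 4 also passed against Rank3, namely ASV25, ASV91, ASV621 and ASV648, of which edgeR passed only ASV91. For carriage, 1 passed, with 0 against either rank alone and 0 to 1 without single libraries. Of 45 pairs, 15 passed, with 0 against Rank3 alone, 2 of 3 common pairs, 0 of 3 pairs where both were present, and 5 to 21 without single libraries.

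Replicate numbers are shared by the ranks, and the labels do not say whether they pair the mice. Deviations of same-numbered libraries correlated above 0.1 in 6 of 18 cases, with a range of -0.63 to 0.50. These correlations were not compared with those of differently numbered libraries, so they cannot decide whether same-numbered mice were paired, which was not tested. With the replicate block 0 ASVs passed against the pooled ranks, 0 against Rank2 and 4 against Rank3, with ASV25 in place of ASV614, 0 by carriage, and 5 of 45 pairs passed.

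Directions turned for ASV46 with TMMwsp (log2 0.0047 pooled, 0.034 against Rank2); by limma, ASV614 (0.44 pooled, 0.12 against Rank3), ASV2380 (0.044 pooled) and ASV694 (0.39 against Rank2); ASV774 against Rank2 (-1.04 with the replicate block, -0.13 to 1.49 without single libraries). ASV46/ASV774 gave 1.45 against Rank3 alone, 0.086 with the replicate block, 0.020 with a pseudocount of 0.25, and -1.03 to 1.82 without single libraries. Depth per library is unknown, so a count of 0 limits no share of the community.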
